A study of Mus musculus with 4 samples.

Results

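The genes described here are Tnfaip3, which encodes the ubiquitin-editing enzyme A20, and the adaptors, deubiquitinase, ligases and kinase that work with it on ubiquitin chains in NF-kappaB signalling: Tnip1, Tnip2, Cyld, Birc2, Birc3, Traf1, Traf2, Traf3 and Map3k14. The 10 genes were chosen by function and matched by symbol, 10 of the 34745 rows of the deposited gene table, and the set was picked because Tnfaip3 and Birc2 stood out between the genotypes compared below. Their values in that comparison are therefore a description, with no p-value, and counts of them past a threshold support nothing. RNA was sequenced from T helper 17 (Th17) cultures, the CD4+ T cells that make interleukin 17 cytokines, grown for 3 days from naive CD4+ T cells out of the spleens of C57BL/6 mice. The genotype labelled Setd2-CD4 cre had 2 libraries, numbered 22 and 24, and the wild type (WT) had 2 libraries, numbered 13 and 15. Setd2 encodes a histone methyltransferase, and Cre driven by Cd4 sequences acts in the T cell lineage at large, not in Th17 cells alone. The removed exons, the age and sex of the mice, and whether each library was a separate animal are not stated in the sources used here.

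NF-kappaB factors are held in the cytoplasm by inhibitors until a receptor assembles ubiquitin chains that recruit the kinases which remove those inhibitors. A20, brought to the chains with the help of the ABIN adaptors (Tnip1 and Tnip2), and CYLD, which cuts chains, restrain this step, and Tnfaip3 is itself a classical NF-kappaB target gene. The ligases cIAP1 and cIAP2 (Birc2 and Birc3) build chains at TNF receptors, and together with TRAF2 and TRAF3 they mark the kinase NIK (Map3k14) for destruction, which keeps the noncanonical arm of the pathway low in resting cells. TRAF1 is the relative of TRAF2 that lacks the ligase domain.

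The start regions of 5 of these genes are shown because NF-kappaB acts on several members through sites near the start, and they include windows with such letters and, for Birc2, one without. Each is the RefSeq promoter window on GRCm38.p6, 250 bases before to 50 bases after the transcription start, read 5′ to 3′ on the gene's own strand, with capitals on bases that match the kappaB consensus on either strand.
Tnfaip3: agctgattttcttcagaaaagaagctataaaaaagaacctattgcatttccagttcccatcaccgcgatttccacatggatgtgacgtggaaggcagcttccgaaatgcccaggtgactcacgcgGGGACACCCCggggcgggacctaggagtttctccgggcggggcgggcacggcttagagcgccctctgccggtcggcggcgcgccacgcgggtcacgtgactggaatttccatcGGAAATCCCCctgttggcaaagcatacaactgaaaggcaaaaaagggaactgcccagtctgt
Tnip1: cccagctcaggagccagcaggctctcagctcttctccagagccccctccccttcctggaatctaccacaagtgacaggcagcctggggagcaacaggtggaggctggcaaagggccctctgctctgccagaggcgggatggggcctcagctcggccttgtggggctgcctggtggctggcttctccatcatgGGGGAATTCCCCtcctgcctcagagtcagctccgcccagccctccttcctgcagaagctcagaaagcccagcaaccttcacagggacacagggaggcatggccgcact
Traf3: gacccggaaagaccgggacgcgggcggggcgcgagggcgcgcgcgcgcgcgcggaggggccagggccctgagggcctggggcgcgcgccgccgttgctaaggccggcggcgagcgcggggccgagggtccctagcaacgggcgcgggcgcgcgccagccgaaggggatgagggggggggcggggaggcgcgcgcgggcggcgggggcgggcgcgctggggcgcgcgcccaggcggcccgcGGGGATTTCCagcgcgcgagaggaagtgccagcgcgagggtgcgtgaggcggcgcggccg
Cyld: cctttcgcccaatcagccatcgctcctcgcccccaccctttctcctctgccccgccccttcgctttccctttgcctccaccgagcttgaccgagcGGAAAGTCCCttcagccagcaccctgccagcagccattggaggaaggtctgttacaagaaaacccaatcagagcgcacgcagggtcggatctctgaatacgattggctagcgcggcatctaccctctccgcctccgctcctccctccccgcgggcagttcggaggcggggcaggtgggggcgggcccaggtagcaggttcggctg
Birc2: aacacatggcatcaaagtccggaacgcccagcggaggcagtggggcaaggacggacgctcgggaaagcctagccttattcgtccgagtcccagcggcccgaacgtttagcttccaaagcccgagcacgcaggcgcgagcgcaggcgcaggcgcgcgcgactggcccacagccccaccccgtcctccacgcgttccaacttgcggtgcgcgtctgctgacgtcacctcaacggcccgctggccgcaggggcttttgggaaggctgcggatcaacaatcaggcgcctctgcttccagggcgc
These windows lie at chr10:19015361-19015660 (minus strand), chr11:54962891-54963190 (minus strand), chr12:111166120-111166419 (plus strand), chr8:88696778-88697077 (plus strand) and chr9:7837008-7837307 (minus strand). On the same build the deposited table places Tnip2 at chr5:34496087-34513991, Traf1 at chr2:34941750-34961772, Traf2 at chr2:25517982-25546940 and Map3k14 at chr11:103219762-103267472, all on the minus strand, and all 10 are protein-coding genes.

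All 10 genes had a RefSeq window, 12 windows in all. The consensus is 3 G, an A or G, 2 free bases, 2 bases that are C or T, and 2 C. It was found in 4 of the 10 genes, Tnfaip3, Tnip1, Traf3 and Cyld. Among all RefSeq promoters, 2581 of 27025 genes (9.55%) and 2779 of 32851 windows (8.46%) held it. In Tnfaip3 the matches were GGGACACCCC, 125 to 116 bases before the start, and GGGGATTTCC on the opposite strand, 12 to 3 bases before it. The deposited table places Tnfaip3 at chr10:19000910-19015657 (minus strand), so these matches before the RefSeq start lie inside that span. The other RefSeq window of Tnfaip3 held neither this consensus nor the motif searched below. Traf3 held the same GGGGATTTCC at 10 to 1 bases before its start, in a window of 84.0% G and C. Tnip1 held overlapping matches 58 to 47 bases before its start, and Cyld held GGGACTTTCC on the opposite strand, 155 to 146 bases before its start. Another motif, 3 G, 2 free bases, 3 T and 2 C in a row, was also searched on both strands. It stood in Tnfaip3, Cyld, Traf2 and Traf3, against 1.89% of all genes. Its matches in Tnfaip3, Cyld and Traf3 lie on the consensus matches. Birc2, Birc3, Tnip2, Traf1 and Map3k14 held neither motif in these windows. A match describes letters, not a bound site, and a window without one says nothing of sites elsewhere.

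Total counts were 11007343 and 11322621 in the Setd2-CD4 cre libraries and 12518415 and 12414098 in the WT libraries. Setd2 itself stood at 144 and 153 CPM (counts scaled by library size and edgeR's TMM factors) in Setd2-CD4 cre libraries 22 and 24, against 184 and 176 CPM in WT libraries 13 and 15. Its log2 fold change missed the threshold (-0.28, SE 0.10, edgeR adjusted p = 0.0748), and a sum over the whole gene does not check the deletion. Of the 6 Th17 markers 4 were called higher in Setd2-CD4 cre, and together they summed to 1200 and 1395 CPM in Setd2-CD4 cre libraries, against 583 and 668 CPM in WT libraries, while of the 8 T cell markers 5 were called lower, with sums of 3269 and 3409 CPM, against 4000 and 3914 CPM. All 12 B cell markers were past the edgeR threshold as higher in Setd2-CD4 cre, with sums of 517 and 279 CPM, against 93.6 and 88.2 CPM in WT, and none of them was at 0. Of the 5 NK cell markers, Gzma had 295 and 201 CPM in Setd2-CD4 cre libraries, against 142 and 146 CPM in WT libraries, and made up nearly all of the list's sum. The NK cell markers Ncr1, Klrb1c and Eomes stayed under 3 CPM in every library with overlapping genotypes, and Klra8 was at 0 in all libraries. The 2 CD8 markers summed to 127 and 45.3 CPM in Setd2-CD4 cre libraries, against 55.9 and 72.6 CPM in WT libraries, and myeloid, dendritic and erythroid sums stayed at or under 32.9 CPM in every library. The part of these other cells in the results below was not tested, and in such bulk samples fewer cells of a type and less RNA per cell cannot be told apart.

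Over the whole table, 12927 genes passed the filter on low counts and were fitted with edgeR's quasi-likelihood test, and a call means a Benjamini-Hochberg adjusted p of at most 0.05. Of these genes 2094 (16.2%) were called higher and 1880 (14.5%) lower in Setd2-CD4 cre than in WT, and in 70.7% the libraries of the genotypes did not overlap. The split depended on the processing: library totals without factors gave 1409 higher and 2879 lower, and upper-quartile factors 1565 and 2617. Limma-trend on the deposited FPKM, which changes the test and the unit as well, gave 1267 and 2746. The median log2 fold change of all genes was -0.01 with TMM factors, -0.16 with library totals, -0.12 with upper-quartile factors and -0.12 on the FPKM.

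All 10 genes of the set passed the filter. By TMM-scaled CPM, 8 stood above both WT libraries in both Setd2-CD4 cre libraries, Birc3 stood below, and Cyld overlapped. Over all genes fitted, 70.7% did not overlap, in either direction. By deposited FPKM, Tnip2 (22.6 and 40.6, against 24.6 and 24.3 in WT) and Traf1 (24.3 and 25.1, against 24.1 and 24.7 in WT) overlapped too. Of the 10 genes, those called higher were 5 (Tnfaip3, Birc2, Traf3, Tnip1 and Map3k14), and 5 were not called (Tnip2, Traf2, Traf1, Cyld and Birc3). Map3k14 was not among them with DESeq2, upper-quartile factors, library totals, limma-trend on FPKM, without WT 13 or without WT 15, whereas Tnip2 joined them without Setd2-CD4 cre 22 and Traf2 without Setd2-CD4 cre 24. Birc3 was called lower with upper-quartile factors, with library totals and without Setd2-CD4 cre 24. These calls were made on the contrast behind the choice of the set, so they are listed only, and nothing is read from them against the shares for all genes. The median log2 fold change was 0.47 over the 10 genes and -0.01 over all genes fitted. In Setd2-CD4 cre libraries 22 and 24, the B cell marker sum was 517 and 279 CPM. Also higher in library 22 were Birc2 (824 and 662 CPM), Tnip1 (308 and 269 CPM) and Traf2 (72.0 and 62.0 CPM). The other genes of the set were higher in library 24, among them Tnfaip3 (993 and 1014 CPM) and Tnip2 (121 and 212 CPM). The part of B cells in these values was not tested.

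**Figure D1:**
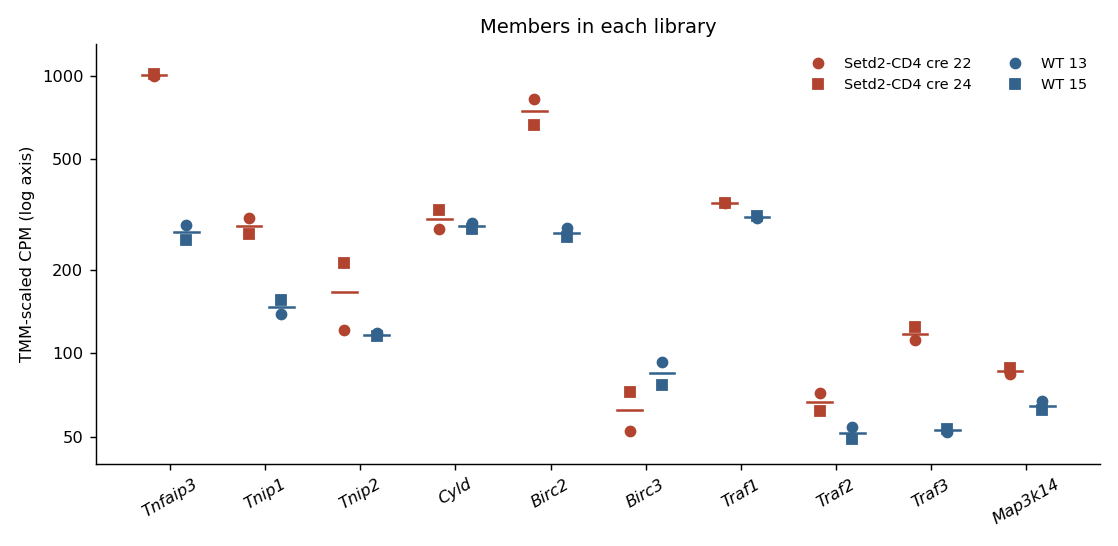
TMM-scaled CPM (log axis) of each of the 10 genes in every library, 1 point per library, with Setd2-CD4 cre libraries 22 and 24 in red to the left of WT libraries 13 and 15 in blue and a line at the mean of each genotype. Tnfaip3 lies at 993 and 1014 CPM in Setd2-CD4 cre, against 289 and 256 CPM in WT, whereas the Cyld libraries of the genotypes interleave.

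Among the chain editors, Tnfaip3 was read at 10196 and 11057 counts in Setd2-CD4 cre libraries 22 and 24, against 3793 and 3358 counts in WT libraries 13 and 15. In TMM-scaled CPM it averaged 1003 ± 14.5 in Setd2-CD4 cre and 272 ± 23.7 in WT (SD, n = 2 each), 3.68-fold higher, with a log2 fold change of 1.88 (SE 0.12). By deposited FPKM, Tnfaip3 stood at percentile 96.1 of the fitted genes in Setd2-CD4 cre and at percentile 82.1 in WT. The log2 fold change ran from 1.68 to 1.97 over the 11 alternative scalings, tools and left-out libraries.

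Tnip1, the ABIN adaptor that binds both A20 and ubiquitin chains, stood at 308 and 269 CPM in Setd2-CD4 cre, against 139 and 156 CPM in WT. That is a 1.96-fold higher level, with a log2 fold change of 0.97 (SE 0.12), and every alternative left it above 0 (0.79 to 1.07). Its relative Tnip2 had 121 and 212 CPM in Setd2-CD4 cre and 118 and 115 CPM in WT. The Tnip2 difference rested on library 24: the log2 fold change of 0.52 (SE 0.27) was 0.06 without library 24 and 0.87 without library 22.

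Cyld, the deubiquitinase that opposes the same chains, had 281 and 327 CPM in Setd2-CD4 cre and 296 and 281 CPM in WT. The libraries overlapped, and the log2 fold change of 0.08 (SE 0.12) turned negative with upper-quartile factors, with library totals, on the FPKM and without Setd2-CD4 cre library 24, where it ranged from -0.08 to -0.04. Within each library, Tnfaip3 could be set against Cyld per kilobase of annotated exon, a ratio that scaling between libraries cannot move. It was 6.16 and 5.39 in Setd2-CD4 cre, against 1.70 and 1.58 in WT, which is 3.52-fold higher. The ratio of Tnfaip3 to Tnip1, its adaptor, was 1.58 and 1.85 in Setd2-CD4 cre, against 1.02 and 0.804 in WT. A ratio alone does not say which of its genes differed from WT. By these ratios inside single libraries, Tnfaip3 was higher in Setd2-CD4 cre relative to Cyld and to Tnip1. That is a description only, since the set was picked because Tnfaip3 stood out in this comparison.

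**Figure D2:**
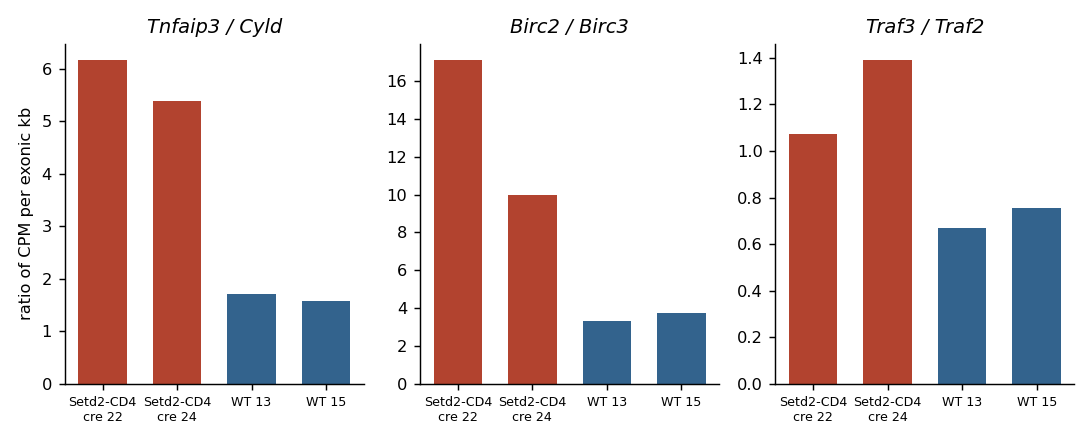
Ratios of Tnfaip3 to Cyld, Birc2 to Birc3 and Traf3 to Traf2 within each library, 1 bar per library, each level taken as CPM per kilobase of annotated exon, with Setd2-CD4 cre libraries (red) left of WT libraries (blue). In each panel both Setd2-CD4 cre bars are above both WT bars, and Birc2 to Birc3 differs most between its Setd2-CD4 cre libraries, 17.1 in 22 and 9.97 in 24.

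The cIAP pair stood on opposite sides of WT. Birc2 (cIAP1) had 8461 and 7217 counts in Setd2-CD4 cre, against 3695 and 3440 counts in WT, or 743 ± 115 CPM and 272 ± 14.0 CPM (SD, n = 2 each). Its level was 2.73-fold higher in Setd2-CD4 cre, with a log2 fold change of 1.45 (SE 0.14) and a range of 1.27 to 1.60 over the alternatives. Birc3 (cIAP2), a classical NF-kappaB target, had 52.7 and 72.6 CPM in Setd2-CD4 cre and 92.8 and 76.6 CPM in WT. The libraries did not overlap, but 72.6 and 76.6 CPM lie close, and the log2 fold change of -0.43 (SE 0.18) ran from -0.68 to -0.21 over the alternatives. The ratio of Birc2 to Birc3 per exonic kilobase was 17.1 and 9.97 in Setd2-CD4 cre, against 3.32 and 3.74 in WT.

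These genes are neighbours on chromosome 9 (GRCm38), Birc2 at 7818227 to 7837064 and Birc3 at 7848699 to 7873186, both on the minus strand with 11634 bases between them. Their annotated transcripts have 65 stretches of 50 bases in common. Of all such stretches, 68 of 4579 in Birc2 (1.49%) and 384 of 5079 in Birc3 (7.56%) also occur in some other gene, and the largest partner of Birc3 is Gm7019, with 213. The counts of Birc3 are the less certain, since how shared reads were assigned is not stated in the sources used here. The next expressed gene beyond Birc2, Tmem123, chosen after its values were seen, had 8334 and 7472 counts in Setd2-CD4 cre, against 5904 and 5957 counts in WT. It rose in Setd2-CD4 cre (log2 fold change 0.73 with an SE of 0.13, edgeR adjusted p = 0.00548). Yap1, also within 300 kilobases, had 50 and 56 counts in Setd2-CD4 cre and 20 and 41 counts in WT, and did not pass (edgeR adjusted p = 0.0656).

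Of the TRAF adaptors, Traf3, which holds NIK for the cIAPs, differed most. Traf3 had 1143 and 1354 counts in Setd2-CD4 cre, against 683 and 703 counts in WT. In TMM-scaled CPM it averaged 118 ± 9.05 in Setd2-CD4 cre and 52.8 ± 1.02 in WT (SD, n = 2 each), 2.23-fold higher, with a log2 fold change of 1.16 (SE 0.12) and a range of 0.80 to 1.24. Traf2, which brings the cIAPs to the complex, had 72.0 and 62.0 CPM in Setd2-CD4 cre and 54.1 and 49.1 CPM in WT. Its log2 fold change was 0.38 (SE 0.13), with a range of 0.20 to 0.48. Traf1, which joins TRAF2 at receptors, had 347 and 349 CPM in Setd2-CD4 cre and 308 and 312 CPM in WT. Its log2 fold change was 0.17 (SE 0.10), down to 0.02 with other scalings.

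Map3k14 (NIK), the kinase that TRAF3 and the cIAPs keep scarce as protein, had 84.2 and 88.8 CPM in Setd2-CD4 cre and 67.1 and 62.5 CPM in WT. The log2 fold change was 0.42 (SE 0.11, range 0.24 to 0.46), 1.33-fold higher. Traf3 to Map3k14 per exonic kilobase was 1.18 and 1.25 in Setd2-CD4 cre, against 0.692 and 0.763 in WT, and Traf3 to Traf2 was 1.07 and 1.39, against 0.669 and 0.756. By these ratios Traf3 was higher in Setd2-CD4 cre relative to Traf2 and to Map3k14, while the ratio of Traf1 to Traf2 overlapped between genotypes (2.79 and 3.25 in Setd2-CD4 cre, 3.29 and 3.67 in WT). NIK is controlled mainly as a protein, which these RNA counts do not measure. Of the rows that overlap these genes, 4930595D18Rik, opposite Traf3, had 0 counts in all libraries and 1700028N14Rik, over Map3k14, had at most 1 count.

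**Figure D3:**
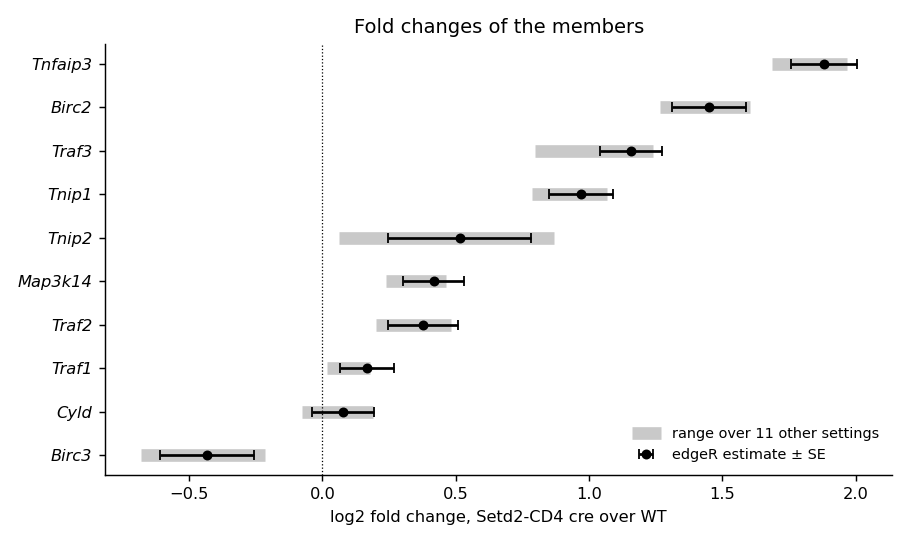
Log2 fold change of each of the 10 genes, Setd2-CD4 cre over WT, with black bars for 1 standard error of the edgeR fit and grey bands for the range over the 11 alternatives. Tnfaip3 (1.88), Birc2 (1.45), Traf3 (1.16) and Tnip1 (0.97) keep their whole ranges well above 0, and the band of Cyld crosses it.

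Levels were ordered per kilobase of annotated exon (TMM-scaled CPM per kilobase). In Setd2-CD4 cre, Birc2 led with 162 ± 25.1, followed by Tnfaip3 with 139 ± 2.01, Tnip1 with 81.5 ± 7.78 and Tnip2 with 62.0 ± 23.7 (SD, n = 2). Birc2 and Tnfaip3 lie within 1 SD of each other there, as do Tnip1 and Tnip2. In WT, Birc2 led with 59.4 ± 3.06 and was followed by Tnip2, Tnip1, Tnfaip3 and Traf1 at 43.4 ± 0.766, 41.6 ± 3.38, 37.7 ± 3.28 and 35.1 ± 0.319, neighbours that differ by about their spread. By exon length Traf3 was lowest in WT at 7.18 ± 0.139 and stood at 16.02 ± 1.23 in Setd2-CD4 cre, where Birc3 was lowest at 12.5 ± 2.81, against 16.9 ± 2.29 in WT. At that end Map3k14, Traf2 and Birc3 lie within their spread in Setd2-CD4 cre. Order between genes depends on the length used, since the lengths implied by the deposited FPKM differ from the exon union, 20180 against 7350 bases for Traf3 and 8788 against 12576 bases for Cyld. By the deposited FPKM Traf3 was the lowest of the 10 in both genotypes, and Cyld ranked 4 in Setd2-CD4 cre and 2 in WT.

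The genes with the most similar profiles were sought over the 4 libraries among 8832 genes with at least 10 CPM on average, by the root mean square difference of centred log2 CPM. Nearest to Tnfaip3 were Fndc3b (0.0485), Dnm3 (0.0697), Vps37b (0.0849) and Rab11fip1 (0.0978). Vps37b, a subunit of the endosomal sorting machinery, had 591 and 577 CPM in Setd2-CD4 cre, against 185 and 169 CPM in WT. Nearest to Birc2 were the chaperone gene Hsp90aa1 (0.0219), Nfkbib (0.0225), Myo1e (0.0390) and Adssl1 (0.0433), which share with Birc2 a higher level in library 22 than in library 24. Likeness over 4 libraries of 2 genotypes mostly reflects the size of the genotype difference and is a description only.

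The rest of the pathway was followed in 10 lists holding 86 genes, of which 84 passed the filter and Ltbr and Tnfrsf11a did not. In Setd2-CD4 cre 21 rose, 12 fell and 51 did not pass (edgeR, adjusted p of at most 0.05 over all 12927 genes), with a median log2 fold change of 0.19 beside -0.01 for all genes. Over all genes 16.2% were called higher and 14.5% lower, the background for these counts and for those of each list below, and the 12 of 84 that fell are about that share. Those shares hold for TMM factors only. With library totals 15 rose and 17 fell, where all genes gave 1409 higher and 2879 lower. With upper-quartile factors 17 rose and 16 fell, where all genes gave 1565 higher and 2617 lower. The counts also changed when a library was left out, as did those over all genes, and the cause was not tested.

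Genes that write or erase linear chains, and the further partners of A20, rose where they passed with edgeR and TMM factors. In the linear chain list 2 of 5 rose: Otulin, the linear chain deubiquitinase, and Rnf31, the catalytic subunit of the linear chain ligase. Otulin had 106 and 83.1 CPM in Setd2-CD4 cre, against 44.8 and 39.3 CPM in WT (log2 fold change 1.17, SE 0.15, edgeR adjusted p = 0.00200). Rnf31 had 120 and 134 CPM in Setd2-CD4 cre, against 89.3 and 77.8 CPM in WT (0.61, SE 0.12, edgeR adjusted p = 0.01003), and lost its call without WT 15 (0.127). Of 11 A20 partners and other editors 4 rose, namely Tax1bp1, Otub2, Rnf11 and, named after its values were seen, Otud7b. Upper-quartile factors, library totals and limma-trend on FPKM each called 1 of the 11 lower. Tax1bp1, an A20 partner and autophagy receptor, had 534 and 555 CPM in Setd2-CD4 cre, against 337 and 345 CPM in WT (0.67, SE 0.11, edgeR adjusted p = 0.00397). None of the 11 passed without WT 13 or without WT 15, and 1 passed with DESeq2; without WT 13 and WT 15 the adjusted p of Tax1bp1 was 0.0550 and 0.0525.

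Receptor adaptors divided. Of 8 other TRAFs and adaptors, Tank (0.47, edgeR adjusted p = 0.0148) and Traf5 (0.69, edgeR adjusted p = 0.0159; named after its values were seen) rose, and the death domain adaptors Tradd and Fadd fell. Tradd, which links TNF receptor 1 to TRAF2, had 6.62 and 6.42 CPM in Setd2-CD4 cre, against 14.3 and 12.9 CPM in WT (log2 fold change -1.06, SE 0.21, edgeR adjusted p = 0.00849). Fadd, the adaptor of caspase 8, had 5.65 and 3.94 CPM in Setd2-CD4 cre, against 9.68 and 12.8 CPM in WT (-1.23, SE 0.28, edgeR adjusted p = 0.0142). Among 7 other IAP genes and antagonists 2 fell. Diablo, the mitochondrial antagonist of the IAPs, had 22.7 and 26.3 CPM in Setd2-CD4 cre, against 49.2 and 44.0 CPM in WT (-0.93, SE 0.15, edgeR adjusted p = 0.00411), and Birc5, a mitotic IAP, stood at -0.76 (SE 0.11, edgeR adjusted p = 0.00255).

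Downstream of the chains, none of the 6 TAK1 module genes was called by edgeR with TMM factors, DESeq2 or limma-voom, and at an unadjusted edgeR p under 0.05 1 of them was higher (Tab2). Library totals and limma-trend on FPKM each called 1 lower, and edgeR called 1 higher without Setd2-CD4 cre 22 and 1 higher without WT 15. Among 5 inhibitor kinases Tbk1 rose (0.37, edgeR adjusted p = 0.0441) and Ikbkg, the chain-binding scaffold NEMO, fell (-0.69, SE 0.14, edgeR adjusted p = 0.0106). Of 10 subunits and inhibitors 4 rose: Nfkbib, Rel, Relb and, named after its values were seen, Nfkb1. Nfkbib had 89.4 and 74.9 CPM in Setd2-CD4 cre, against 30.7 and 28.6 CPM in WT (1.47, edgeR adjusted p = 0.00106), and Rel had 370 and 392 CPM, against 212 and 194 CPM (0.91, edgeR adjusted p = 0.00157).

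At the receptor end 3 of 9 rose. Tnfrsf1b, TNF receptor 2, which signals through TRAF2 and the cIAPs, had 246 and 228 CPM in Setd2-CD4 cre, against 118 and 117 CPM in WT (log2 fold change 1.01, SE 0.10, edgeR adjusted p = 0.00123). Cd40 and Tnfrsf13c, receptors best known from B cells that act through TRAF3, rose to 12.1 and 5.41 CPM and to 21.2 and 12.9 CPM in Setd2-CD4 cre, against 1.98 and 2.36 CPM and 4.73 and 4.34 CPM in WT (edgeR adjusted p = 0.0128 and 0.00325). For both the higher Setd2-CD4 cre library was 22, the library with the larger B cell marker sum, 517 against 279 CPM in library 24; the part of B cells in these values was not tested.

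The 20 genes listed here as NF-kappaB targets, a chosen list and not all targets, did not move one way. Of them 3 rose, 7 fell and 10 did not pass, with a median of -0.15. Subunits and inhibitors of NF-kappaB were counted in their own list instead, where 4 of 10 rose and 0 fell, with a median of 0.26. The split among targets thus depends on which genes were listed. Of the 20 listed, DESeq2 called 3 higher and 5 lower. Tnf, the cytokine, fell to 6.14 and 6.14 CPM in Setd2-CD4 cre, against 32.4 and 37.8 CPM in WT (log2 fold change -2.51 with an SE of 0.17, edgeR adjusted p = 0.000584), and the other 6 that fell lay between -2.02 and -0.61. Cd83, an activation marker also made by B cells, had 109 and 62.5 CPM in Setd2-CD4 cre, against 19.1 and 16.98 CPM in WT (2.25, SE 0.29, edgeR adjusted p = 0.00453), with library 22 again the higher one. Gadd45b (1.21, edgeR adjusted p = 0.00397) and Cflar (0.50, edgeR adjusted p = 0.0193, named after its values were seen) also rose. Of the set described here, Tnfaip3, Birc3 and Traf1 are also classical targets, and their log2 fold changes were 1.88, -0.43 and 0.17. Whether others of the set are targets was not examined, such as Tnip1, Traf3 and Cyld, which hold consensus matches (0.97, 1.16 and 0.08).

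**Figure D4:**
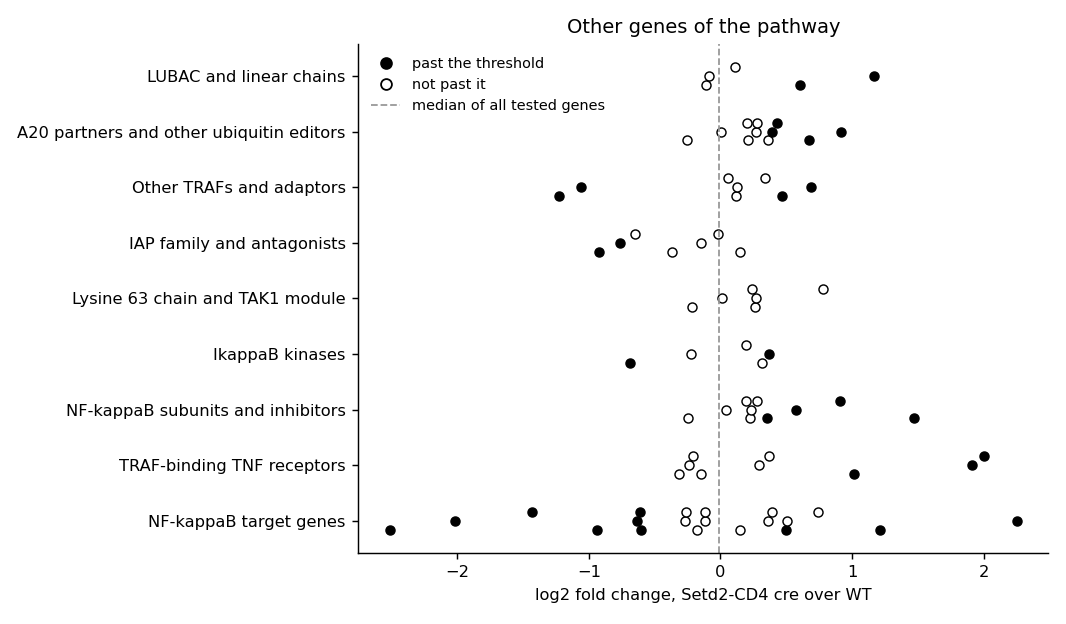
Log2 fold change, Setd2-CD4 cre over WT, of the 81 fitted genes in the 9 pathway lists described, 1 point per gene and 1 row per list, filled where the gene passed the edgeR threshold, and a dashed line at the median of all genes fitted. Of these 81 genes 19 rose and 12 fell, and the list of target genes spreads from Tnf at -2.51 to Cd83 at 2.25.

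Of the 21 pathway genes named by rule in the lists described, 10 kept their call in all 11 alternatives: Otulin, Diablo, Birc5, Nfkbib, Rel, Tnfrsf1b, Tnfrsf13c, Tnf, Gadd45b and Cd83. The other 11 lost it without WT 13 (9 genes), without WT 15 (10 genes) or both, with edgeR adjusted p from 0.0504 to 0.358, and all 21 kept their direction. Of these, Otub2, Rnf11, Tank and Tbk1 also lost it in other alternatives, such as another tool or scaling.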

How the data were processed

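Per the file headers, the deposited table holds counts of reads for each gene, in whole numbers, and FPKM. Bowtie2, RSEM, GRCm38.p6 and mm10 are named in the submitters' processing notes, without versions or roles. Rounding of the RSEM estimates, use of strand and handling of reads shared between genes are not given in the sources read. Groups and replicate names came from the sample titles; 1 WT cell type label carries another number than its title, and the title was followed. Counts were fitted as deposited with edgeR 4.0.16 (R 4.3.3): TMM factors of 0.934 to 1.06, filterByExpr, robust quasi-likelihood test, 12927 genes, threshold 0.05. Alternatives used limma 3.58.1, with a pseudocount of 1 on log2 FPKM, and DESeq2 1.42.0. The procedure was tested on simulated counts with far fewer changed genes than were called here, and no result above rests on that test.

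The genes of the set, the pathway and marker lists and the rule for named genes (the 3 called genes of each list with the smallest p) were chosen with earlier results of these data known. The genes of 1 pathway list count in the totals and are not reported here. Replicates differed beyond counting noise (chi-square per degree of freedom 17.4 in Setd2-CD4 cre and 8.27 in WT). The labels do not say that libraries came from separate animals or cultures, so the p-values weigh only spread among these 4 samples, which could be technical in origin. A count of 0 allows up to 3 counts, 0.228 to 0.292 CPM; this covers counting error only. Exon lengths came from GENCODE M21, promoters from RefSeq (GRCm38.p6).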

Additional observations from a re-analysis of the deposited data

How the results depend on the processing

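The counts of genes called depended on the processing. Against 2094 higher and 1880 lower with TMM and edgeR, library totals gave 2879 lower and limma-trend on FPKM gave 1267 higher. Leaving out 1 library at a time gave 718 to 3068 higher and 564 to 2903 lower, and for the wider pathway 10 to 32 higher and 6 to 14 lower, against 21 and 12. The cause was not tested; with 3 libraries 1 genotype has a lone library that is assumed to vary like the other. For the 10 genes of the set, 106 of 110 alternative values kept their direction, all 4 exceptions being Cyld. The kappaB consensus was found in 4 genes in the full window and in 3 in the last 150 bases before the start. No paired analysis was possible because the groups share no replicate number. With 2 libraries in each genotype, small differences such as those of Traf1 and Traf2 are poorly resolved.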

Other observations

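The deposited table's own KEGG labels, chosen after the data were seen, place 7 of the 10 genes in NF-kappa B signaling. Of its other genes 74 were fitted, of which 22 rose and 11 fell in Setd2-CD4 cre, with a median log2 fold change of 0.23. Under TNF signaling, 84 other genes were fitted, of which 10 rose and 17 fell, with a median of 0.04. Under ubiquitin mediated proteolysis, 124 other genes were fitted, of which 28 rose and 14 fell, with a median of 0.15. Over all genes fitted, 16.2% were called higher and 14.5% lower.

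Ube2v1, listed with the TAK1 module, had 58.4 and 53.3 CPM in Setd2-CD4 cre libraries, against 11.1 CPM in WT 13 and 54.1 CPM in WT 15. Xiap, the inhibitor of caspases related to the cIAPs, had 136 and 79.7 CPM in Setd2-CD4 cre libraries, against 71.0 and 168 CPM in WT libraries. For Ube2v1 the WT libraries, and for Xiap the libraries of both genotypes, differed more than the genotype means did. Neither gene passed the edgeR threshold (adjusted p = 0.596 and 0.876).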
